A study of Mus musculus with 2 samples.

Results

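The MEF2 transcription factors and the class IIa histone deacetylases were followed in newborn mouse skeletal muscle as 8 genes: Mef2a, Mef2b, Mef2c and Mef2d, and Hdac4, Hdac5, Hdac7 and Hdac9. They were chosen by symbol, as 8 of the 43346 gene rows of each gene table, together with their 65 transcript rows. The muscle came from mice of the B6NCrl strain on postnatal day 0 and makes up 1 group of 2 biological replicates. By the labels, replicate 1 is muscle of pup 1 and replicate 2 muscle of pup 2, from 1 pregnancy, although both samples share a donor entry. No genetic change or treatment is listed, the muscle taken is not named, and the sex was not collected. Total RNA libraries were prepared from 10 ng of RNA per sample, of sizes over 200 nt. Since there is only 1 group, no conditions were compared and no test was run; values are means ± SD (n = 2), and that spread is biological only if the samples are separate animals.

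MEF2 proteins bind DNA through a MADS box, at A/T-rich sites near many muscle genes, and act together with the myogenic bHLH factors. Class IIa histone deacetylases have almost no deacetylase activity of their own. They bind MEF2 in the nucleus and repress its targets until kinases phosphorylate them and 14-3-3 proteins carry them to the cytoplasm. This is a route by which nerve activity and calcium reach MEF2 in muscle.

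The gene tables summed to 40454600 expected counts in replicate 1 and 37150684 in replicate 2. Skeletal muscle markers (8 of 8 at or above 1 TPM) summed to 66352 and 75229 TPM, where TPM is the length-corrected level of the files. Here and below, the limit of 1 TPM applies to the mean of the pups unless a pup is named. Counts of genes at this limit show presence only, since the share of all protein-coding genes that reach it was not computed. Other tissues were present unequally. Epidermal markers summed to 428 TPM in replicate 1, where 5 of 5 reached 1 TPM, and to 4.19 in replicate 2, where 1 of 5 did. Fat markers summed to 4512 and 869.68 TPM, with 4 of 4 at that level in each pup. Cartilage markers summed to 46.9 TPM (7 of 7) and 4.4 TPM (1 of 7), and bone markers to 25.7 TPM (2 of 5) and 1.73 TPM (1 of 5). Endothelial markers (8 of 8) summed to 305 and 279 TPM and smooth muscle markers (6 of 6) to 618 and 566. Of the leukocyte markers, 2 of 6 reached 1 TPM and summed with the rest to 116 and 113 TPM, of which Lyz2 made up 111 on average, while Ms4a1 stood at 0.03 and 0.05. No neuronal marker reached a mean of 1 TPM (0 of 5, sums of 2.01 and 1.23), and Syn1 stood at 0.11 and 0.06. Of the 6 heart markers, 3 reached 1 TPM, and Sln, which newborn skeletal muscle also expresses, held nearly all of their sum of 4337 and 6635 TPM. In bulk tissue, fewer cells of a type and less RNA per cell cannot be told apart.

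Newborn muscle held RNA of 7 of the 8 genes at or above 1 TPM, and Mef2c was the most abundant. Mef2c (ENSMUSG00000005583, chr13:83504034-83667080, plus strand, mm10), which is needed for skeletal muscle maturation and for heart development, stood at 143.76 TPM in replicate 1 and 148.72 in replicate 2 (146 ± 3.51, n = 2). Those values came from 24123 and 24269 expected counts, and the mean was higher than that of 93.6% of the 12495 protein-coding genes at or above 1 TPM. Mef2d (ENSMUSG00000001419, chr3:88142372-88172086, plus strand), the broadly expressed family member, stood at 53.61 and 56.71 TPM (55.2 ± 2.19). Mef2a (ENSMUSG00000030557, chr7:67231163-67372858, minus strand), which is active in muscle regeneration and in heart, stood at 40.55 and 39.20 TPM (39.9 ± 0.955). Mef2b (ENSMUSG00000079033, chr8:70139711-70167488, plus strand), best known from germinal centre B cells, had only 10 and 14 expected counts, or 0.30 and 0.41 TPM. The order Mef2c, Mef2d, Mef2a, Mef2b was the same in both pups, with no overlap between neighbours. By share of the summed Mef2 TPM, Mef2c held 60.5% ± 0.244, Mef2d 22.8% ± 0.452, Mef2a 16.5% ± 0.725 and Mef2b 0.147% ± 0.0293.

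Among the class IIa deacetylases Hdac5 led and Hdac9 was lowest. Hdac5 (ENSMUSG00000008855, chr11:102194432-102230166, minus strand), a signal-dependent repressor of MEF2 in heart and muscle, stood at 44.41 TPM in replicate 1 and 48.16 in replicate 2 (46.3 ± 2.65, n = 2). Hdac7 (ENSMUSG00000022475, chr15:97792664-97844502, minus strand), known for its part in vessel integrity and thymocytes, stood at 14.25 and 11.97 TPM (13.1 ± 1.61). Hdac4 (ENSMUSG00000026313, chr1:91928779-92195699, minus strand), which mediates the response of muscle to denervation and restrains cartilage maturation, stood at 12.98 and 11.92 TPM (12.4 ± 0.750). The ranges of Hdac7 and Hdac4 overlapped, so these genes were not ordered by their levels. Hdac9 (ENSMUSG00000004698, chr12:34047580-34917095, minus strand), which represses MEF2 and is itself a MEF2 target, stood at 5.49 and 5.66 TPM (5.58 ± 0.120). Hdac5 held 59.8% ± 3.11 of the summed class IIa TPM, Hdac7 16.9% ± 2.17, Hdac4 16.1% ± 1.05 and Hdac9 7.20% ± 0.117. Hdac5 also stood between Mef2d and Mef2a in the joint order, by ratios of means of 1.19 to Mef2d above it and 1.16 to Mef2a below it, with no overlap between the pups' values.

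**Figure D1:**
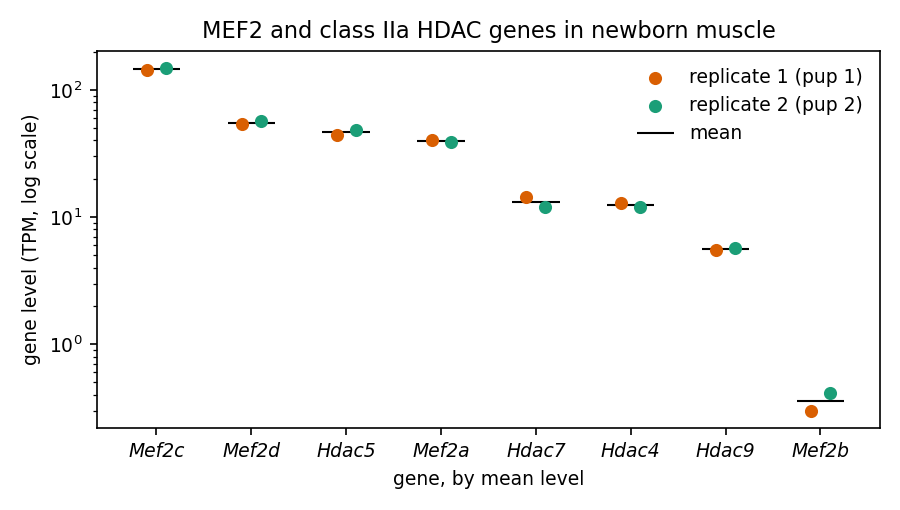
Level of each of the 8 genes (TPM, log axis) in replicate 1 and replicate 2, with the mean as a line, ordered by mean. Mef2c is highest at 143.76 and 148.72 TPM, only the points of Hdac7 and Hdac4 overlap between neighbours, and Mef2b lies under 1 TPM.

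The 4 Mef2 genes summed to 238.22 TPM in replicate 1 and 245.04 in replicate 2 (242 ± 4.82, n = 2). The 4 class IIa genes summed to 77.13 and 77.71 TPM (77.4 ± 0.410). Mef2 RNA therefore exceeded class IIa RNA 3.09-fold in replicate 1 and 3.15-fold in replicate 2, a log2 ratio of 1.64 ± 0.02.

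Summed TPM of a gene includes models that code for no protein or for a fragment, and this weighed most on Hdac5. Full-length coding models, here protein-coding models with at least 80% of the codons of the gene's longest, held 15.82 and 16.74 TPM of Hdac5 (16.3 ± 0.651). That was 35.6% and 34.8% of its TPM but 65.3% and 62.1% of its expected counts, because short models turn few reads into many TPM. Retained-intron models of Hdac5 held 41.2% and 39.7% of its TPM and 14.8% of its counts in each pup. By full-length models the order of Hdac5 and Mef2a turned, since Mef2a kept 34.36 and 33.68 TPM (34.0 ± 0.481). Mef2c kept all of its level, which was fixed in advance because its 3 listed models are all full-length coding. Mef2d kept 52.32 and 55.19 TPM (53.8 ± 2.03). Hdac7 kept 10.37 and 7.97 TPM and Hdac4 8.13 and 8.53 TPM, which again overlapped. With Hdac9 kept at its gene level, the class IIa sum by this count was 39.4 TPM, and the log2 ratio of Mef2 to class IIa RNA was 2.57. Both values depend on the models listed for each gene, of which Hdac5 has 20, 10 of them retained-intron. The full-length count was chosen after the values were seen.

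**Figure D2:**
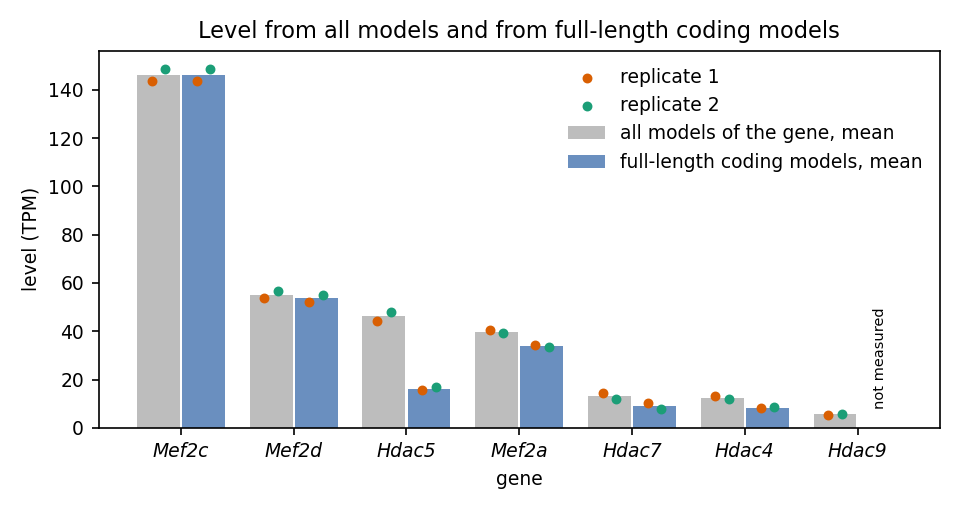
Mean level (TPM, bars) from all models of a gene and from its full-length coding models, with points for replicates 1 and 2. The blue bar of Hdac5 (16.3 TPM) falls below that of Mef2a (34.0 TPM), and Hdac9 has no blue bar because its listed model is a short form.

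Hdac9 was measured through a single short model. In the later GENCODE M21 annotation, Hdac9-201 has 12 exons and 588 codons, against 1067 codons in the longest Hdac9 model. Its length was 4422 nt as deposited and 4413 nt in M21, so its exon content rests on the later annotation. All 709 and 692 expected counts of the gene were assigned to Hdac9-201. It corresponds to the MITR type of HDAC9, which keeps the MEF2-binding and corepressor-binding part and lacks the catalytic domain. The other 9 models of Hdac9 in that annotation were not measured, so the values do not separate short from full-length Hdac9.

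For the other class IIa genes, which have several listed models each, the shares of some models differed between the pups. Hdac4-202, a coding model of 1076 codons, held 62.6% and 71.6% of Hdac4 TPM and 94.9% and 95.6% of its counts. Hdac4-205, a coding fragment of 112 codons, took 22.4% and 8.66% of TPM on 65.3 and 21.9 counts. For Hdac5, full-length Hdac5-204 held 16.8% and 20.8% of TPM and full-length Hdac5-202 held 18.5% and 12.5%. Those models changed places between the pups, in TPM and in counts (823 and 1043 for Hdac5-204, 899 and 625 for Hdac5-202). The remaining Hdac5 models with at least 10% of its TPM or counts on average were the retained-intron models Hdac5-217 (19.9% and 17.4%) and Hdac5-211 (11.8% in each), the coding fragment Hdac5-214 (11.3% and 12.7%), and Hdac5-205, annotated as a target of nonsense-mediated decay (9.37% and 11.5%). For Hdac7, the retained-intron model Hdac7-211 held 25.8% and 31.9% of TPM and full-length Hdac7-208 held 26.3% and 15.6%. Full-length Hdac7-207 held 22.3% and 15.8% and Hdac7-201 19.5% and 13.3%, while Hdac7-202 held 3.93% and 16.4% of counts. Over all 8 genes, the leading model by TPM was the same in both pups for 5, with Mef2b, Hdac5 and Hdac7 the exceptions. Among these 5, the agreement of Hdac9 was fixed in advance, since it has 1 listed model. Of the 65 models, 11 had 0 counts in both pups. Mef2b gave all of its 10 counts to Mef2b-201 in replicate 1 and all of its 14 to Mef2b-203 in replicate 2, a depth too low to tell models apart.

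Mef2a, Mef2c and Mef2d each carry a pair of mutually exclusive exons, alpha-1 and alpha-2, just after the exons of the DNA-binding domain, and a short beta exon in the transactivation region. In MEF2D the alpha-1 form is known as the broadly expressed one and the alpha-2 form as the one that appears as muscle cells differentiate. The exons were located on GRCm38 (mm10) in the GENCODE M21 annotation, where the upstream exon of each pair is alpha-1. All are coding exons on the strand of their gene. In Mef2a, alpha-1 lies at chr7:67268269-67268400 and beta at chr7:67244521-67244544. In Mef2c, alpha-1, alpha-2 and beta lie at chr13:83625265-83625408, chr13:83625470-83625607 and chr13:83654598-83654621. In Mef2d they lie at chr3:88158034-88158171, chr3:88158221-88158355 and chr3:88161781-88161801.

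The alpha-1 exons are shown because models with them held most of the estimated Mef2a and Mef2d RNA here. Capitals mark the bases that code for a run of 6 residues identical in all 3 genes.
Mef2a alpha-1: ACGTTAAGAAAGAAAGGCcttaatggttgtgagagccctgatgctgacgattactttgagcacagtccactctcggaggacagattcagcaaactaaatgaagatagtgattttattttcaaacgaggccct
Mef2c alpha-1: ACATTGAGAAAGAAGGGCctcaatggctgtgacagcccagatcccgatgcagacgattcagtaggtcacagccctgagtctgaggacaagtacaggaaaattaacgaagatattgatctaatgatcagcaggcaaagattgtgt
Mef2d alpha-1: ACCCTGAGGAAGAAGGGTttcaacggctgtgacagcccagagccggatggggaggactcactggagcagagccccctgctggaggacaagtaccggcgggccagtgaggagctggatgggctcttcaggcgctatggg

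The alpha-2 exons of Mef2c and Mef2d are shown as the alternatives. Capitals mark the bases that code for a run of 8 residues identical in both.
Mef2c alpha-2: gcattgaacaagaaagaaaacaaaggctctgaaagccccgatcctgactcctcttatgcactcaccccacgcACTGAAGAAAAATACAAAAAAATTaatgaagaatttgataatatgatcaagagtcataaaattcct
Mef2d alpha-2: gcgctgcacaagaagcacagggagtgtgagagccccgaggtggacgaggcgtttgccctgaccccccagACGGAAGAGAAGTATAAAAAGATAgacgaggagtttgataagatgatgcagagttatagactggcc

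The translated exons of Mef2c and Mef2d matched more by position in the pair than by gene. Alpha-2 of Mef2c and Mef2d shared 26 of 46 residues (56.5%). Alpha-1 shared 28 of 48 residues (58.3%) between Mef2a and Mef2c, 23 of 46 (50%) between Mef2a and Mef2d, and 26 of 48 (54.2%) between Mef2c and Mef2d. Alpha-1 and alpha-2 of the same gene shared 43.8% in Mef2c and 34.8% in Mef2d.

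The beta exons, in capitals throughout, code for 8 residues in Mef2a and Mef2c and 7 in Mef2d.
Mef2a beta: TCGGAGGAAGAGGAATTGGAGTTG
Mef2c beta: TCTGAGGATGTGGATCTGCTGTTG
Mef2d beta: ACTGAGGACCATTTAGATCTG

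By the model estimates, Mef2a RNA of newborn muscle was mostly alpha-1 with the beta exon. The model with both, Mef2a-208, held 59.3% and 63.4% of Mef2a TPM and 81.1% and 83.5% of its counts. Models with alpha-2, Mef2a-201 and Mef2a-203, together held 25.8% of the TPM of alpha-exon models in replicate 1 and 22.6% in replicate 2 (24.2% ± 2.25). The same share was 15.3% and 13.2% by counts. Mef2a-201 alone held 22.9% and 17.4% of Mef2a TPM and Mef2a-203 2.52% and 5.08%, so the split between these alpha-2 models differed more between the pups than their sum did. Mef2a-205, an alpha-1 fragment that ends before the beta exon, held 13.5% in each pup. Of the other alpha-1 models, Mef2a-202 held 0.30% and 0.15%, and Mef2a-204 and Mef2a-206 had 0 counts. Among models that span the beta exon, those with it held 69.8% and 73.7% of TPM (71.7% ± 2.76) and 84.0% and 86.3% of counts. Neither alpha-2 model carries beta, so the alpha and beta shares are not independent estimates. Mef2a-201 and Mef2a-203 are annotated at 2476 and 2664 nt against 5538 nt for Mef2a-208. Reads in sequence that only Mef2a-208 holds among the models with counts can be assigned only to that alpha-1 model.

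Mef2d RNA was also mostly alpha-1, but mostly without beta. Mef2d-201 (alpha-1) held 35.0% and 35.5% of Mef2d TPM and 56.6% and 56.3% of counts, and Mef2d-204 (alpha-1) 21.3% and 23.9% of TPM. Mef2d-203 carries alpha-1 and beta and held 21.6% and 22.2%, and Mef2d-202, the sole alpha-2 model, held 19.6% and 15.7%. The alpha-2 share of alpha-exon models was 20.1% and 16.1% of TPM (18.1% ± 2.83) and 9.99% and 7.84% of counts. The beta share was 22.2% and 22.8% of TPM (22.5% ± 0.492) and 11.2% and 11.3% of counts. No Mef2d model joins alpha-2 to beta, and Mef2d-202 and Mef2d-203 are annotated at 1767 and 1791 nt against 5401 nt for Mef2d-201. Reads in sequence that only the longer alpha-1 models, Mef2d-201 and Mef2d-204, hold can be assigned only to those models.

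For Mef2c the tables cannot give an alpha-1 share. All 3 listed models, Mef2c-201, Mef2c-202 and Mef2c-203, carry alpha-2, so the alpha-2 share of 100% in both pups follows from the models and is no measurement. The 10 models with alpha-1 in GENCODE M21 were not measured. Mef2c-202, which in that annotation holds the first 60 nt of alpha-1 joined to alpha-2, led with 55.1% and 60.5% of TPM. Mef2c-201, with alpha-2 alone, held 21.4% and 21.3%, and Mef2c-203, with alpha-2 and beta, held 23.6% and 18.2%. The beta share of Mef2c was 23.5% and 18.2% of TPM (20.9% ± 3.78) and 14.2% and 10.7% of counts. The 3 models differ in length between the files and the later annotation (6427 nt in the files and 6277 nt in the annotation for Mef2c-202), so their exon content rests on the later annotation.

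**Figure D3:**
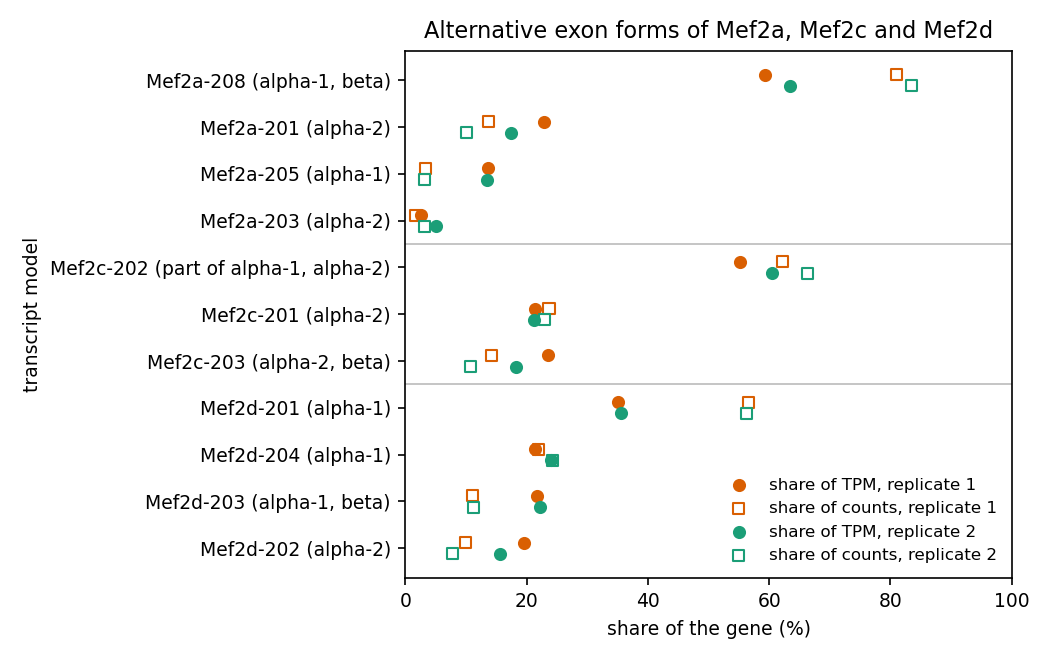
Share of the gene (%) held by each Mef2a, Mef2c and Mef2d model with at least 2% of TPM on average, as filled circles for TPM and open squares for expected counts in each replicate, with the alternative exons of the model in brackets. Mef2a-208 is the leading form of its gene at 59.3% and 63.4% of TPM, and the alpha-2 models of Mef2a and Mef2d lie lower by counts than by TPM.

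The other classical deacetylases give the setting of the class IIa genes. Hdac2 was highest at 87.77 and 82.10 TPM, followed by Hdac3 at 49.12 and 44.39 and Hdac1 at 51.16 and 39.83. These class I enzymes carry the deacetylase activity of most corepressor complexes. Hdac5 at 44.41 and 48.16 TPM overlapped the ranges of Hdac3 and Hdac1, while Hdac8, the remaining class I gene, stood at 2.29 and 3.14. Class IIa genes held 26.8% and 29.0% of the TPM of the 11 classical deacetylase genes (27.9% ± 1.60). By full-length coding models alone, Hdac5 at 15.82 and 16.74 TPM lay below Hdac3 at 45.56 and 40.31 and Hdac1 at 48.73 and 37.90 in both pups. Hdac9 left out, the class IIa share of the other 10 genes was then 14.8% and 15.8% (15.3% ± 0.745), a count added after the values were seen. All 3 class IIb and IV genes reached 1 TPM, Hdac11 at 7.25 and 8.83, Hdac10 at 8.85 and 7.13 and Hdac6 at 4.62 and 4.54, all below Hdac4 and Hdac7 in both pups. The 7 sirtuins, which are unrelated NAD-dependent deacylases, all reached 1 TPM and summed to 135 and 123 TPM, led by Sirt2 (52.6 ± 3.84), Sirt3 (22.4 ± 0.856), Sirt4 (19.1 ± 3.10) and Sirt6 (11.0 ± 0.544).

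**Figure D4:**
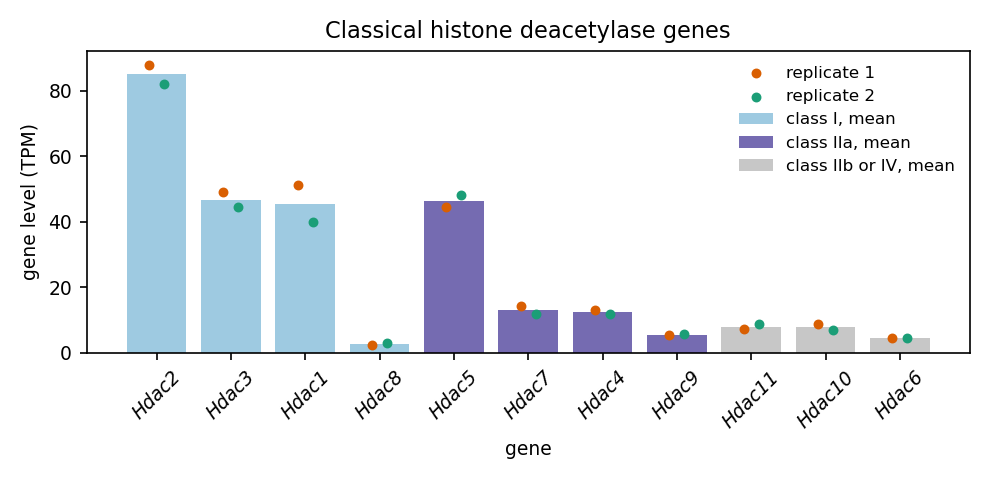
Level (TPM) of the 11 classical histone deacetylase genes by class, as mean bars with points for replicates 1 and 2. With all models counted, Hdac5 (46.3 TPM) overlaps Hdac3 and Hdac1, although its full-length coding models held 16.3 TPM, and the other class IIa bars lie at 13.1 TPM or below.

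RNA for the proteins that move class IIa deacetylases between nucleus and cytoplasm, and for their corepressor partners, was present for most listed genes. The share of all protein-coding genes that reach the same limit was not computed. Of 18 kinase genes that can phosphorylate class IIa deacetylases, 16 reached 1 TPM, led by the calcium/calmodulin-dependent kinases Camk2b (74.2 ± 1.39), Camk1 (56.5 ± 13.4), Camk2d (54.2 ± 0.212) and Camk2a (45.9 ± 6.62). The 7 genes for 14-3-3 proteins, the cytoplasmic anchors, reached 1 TPM on average, 7 in replicate 1 and 6 in replicate 2 (all but Sfn), led by Ywhae (432 ± 56.1), Ywhaz (258 ± 43.3), Ywhaq (173 ± 46.2) and Ywhag (139 ± 3.44). All 7 phosphatase and nuclear transport genes did too, among them Ppp1cb (63.0 ± 2.53), Kpna2 (45.3 ± 7.63), Ppp2ca (43.9 ± 1.96) and Ppp2r2a (23.1 ± 2.51). Of 12 corepressor partners, 11 reached 1 TPM, led by Ctbp1 (114 ± 12.2), Ncor1 (68.8 ± 3.84), Hdac3 (46.8 ± 3.34) and Gps2 (34.9 ± 1.44). Ncor1 and Hdac3 form the complex through which class IIa proteins are linked to an active deacetylase.

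Of 16 partners of MEF2 on the activating side, 16 reached 1 TPM in replicate 1 and 15 in replicate 2, where Mapk11 stood at 0.97 TPM. Mamstr, a muscle coactivator that binds MEF2, led at 118.74 and 140.37 TPM, ahead of Vgll2 (74.3 ± 0.0212), Map2k3 (56.3 ± 6.77) and Smyd1 (45.3 ± 2.77). The calcineurin and NFAT list, which includes the MEF2 repressor Cabin1, had 9 of 9 genes at or above 1 TPM, led by Ppp3r1 (106 ± 6.24), Ppp3ca (68.6 ± 13.6), Ppp3cb (36.5 ± 6.53) and Nfatc2 (8.16 ± 0.262). Of 12 matched bHLH factors and Srf-related genes, 11 reached 1 TPM, led by Myf6 (233 ± 16.4), Tcf4 (73.0 ± 4.38), Myod1 (56.6 ± 0.863) and Myf5 (44.1 ± 7.70). Outside these 12, Myog, a myogenic bHLH factor counted here among the MEF2 targets and muscle markers, stood at 297.05 and 298.63 TPM, above Myf6. Mef2c at 143.76 and 148.72 TPM thus lay below Myog and Myf6 and above Myod1 and Myf5. The ranges of Mef2d and Myod1 overlapped. Srf, the related MADS-box factor, stood at 6.25 and 5.65 TPM, below Mef2a, Mef2c and Mef2d in both pups.

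All 20 genes listed as MEF2 targets in muscle reached 1 TPM, with a median of 139 TPM. The highest were Ckm, muscle creatine kinase (12078 ± 563), the Z-disc proteins Myoz1 (1608 ± 140) and Myoz2 (646 ± 0.389), and Smpx (840 ± 4.88). Of 5 genes of the denervation response, Chrna1 and Chrng, acetylcholine receptor subunits, stood at 53.1 ± 5.61 and 47.0 ± 1.63 TPM and Runx1 at 1.36 ± 0.269. Dach2, which Hdac4 represses on denervation, stood at 0.62 and 0.56 TPM, and Gdf5 at 0.30 and 0.08.

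Between the pups, none of the 7 genes with at least 100 mean counts passed a 2-fold difference in scaled counts (0 of 7, against 2.43% of all 12429 genes with that many counts, 2.28% higher in replicate 1 and 0.145% higher in replicate 2). Mef2b, with 10 and 14 counts, had too few. The log2 ratio of replicate 2 over replicate 1 was 0.29 for Hdac5, 0.24 for Mef2d, 0.22 for Mef2c, 0.19 for Hdac4, 0.18 for Hdac9 and 0.14 for Mef2a, and -0.15 for Hdac7. With TMM scaling, a 95% counting interval excluded equality for all 7, 6 of them higher in replicate 2 and Hdac7 higher in replicate 1. Equality was also excluded for 53.6% of all genes tested (28.4% higher in replicate 1 and 25.2% higher in replicate 2). Exclusion of equality is therefore common between these libraries, which differed beyond sampling. The interval ran from 0.20 to 0.25 for Mef2c, from 0.22 to 0.37 for Hdac5 and from -0.27 to -0.04 for Hdac7. The median log2 ratio was 0.19 over these 7 genes, -0.01 over all genes tested, 0.21 over the skeletal muscle markers, 0.22 over the MEF2 targets and 0.03 over the endothelial markers. Scaling by total counts in place of TMM moved the median of all genes to -0.10 and turned the sign of no member. It lowered the log2 ratio to 0.21 for Hdac5, 0.15 for Mef2d, 0.13 for Mef2c, 0.10 for Hdac4, 0.09 for Hdac9, 0.05 for Mef2a and -0.24 for Hdac7. Equality was then excluded for 5 of 7, 4 higher in replicate 2 and Hdac7 higher in replicate 1, against 57.5% of all genes (43.1% higher in replicate 1 and 14.4% higher in replicate 2). The intervals of Mef2a (-0.01 to 0.11) and Hdac9 (-0.07 to 0.24) then held 0. The epidermal, fat, cartilage and bone markers ran the other way from all of these genes but Hdac7, with median log2 ratios of -8.92, -2.86, -3.17 and -3.76, and their part in the ratios was not tested.

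**Figure D5:**
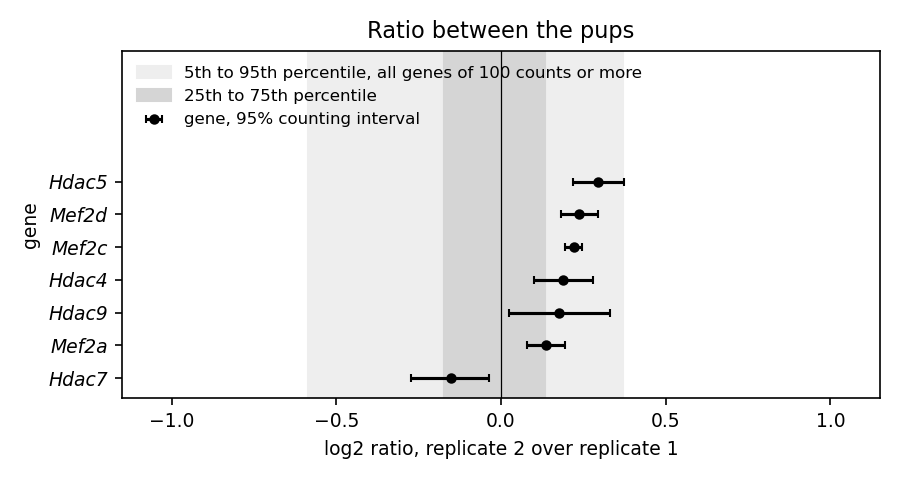
Log2 ratio of replicate 2 over replicate 1 for the 7 genes with at least 100 mean counts, with 95% counting intervals, over grey bands for the 5th to 95th and 25th to 75th percentiles of all genes tested. Hdac7 is the one gene below 0 (-0.15), and Hdac5 is highest at 0.29.

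In the partner lists, 2 genes passed the 2-fold difference, 1 of 17 kinases and 1 of 7 genes for 14-3-3 proteins with enough counts. Both were higher in replicate 1. Of all genes tested, 2.43% passed it, 2.28% being higher in replicate 1. Sik2, a kinase of class IIa deacetylases, stood at 13.96 TPM in replicate 1 and 6.17 in replicate 2, barely past the limit at a log2 ratio of -1.01. Sfn, a 14-3-3 gene of epithelia, stood at 10.27 and 0.33 TPM, alongside the epidermal markers at 428 and 4.19 TPM. The other listed genes past 2-fold belonged to the marker lists of epidermis (5 of 5), fat (4 of 4), cartilage (4 of 5 with enough counts) and bone (2 of 2), all higher in replicate 1. Of the epidermal markers, Krt1 stood at 164 and 0.26 TPM, Krt10 at 104 and 3.79, Lor at 67.5 and 0.04, Krt14 at 58.3 and 0.07 and Krt5 at 34.5 and 0.03. Fabp4, Cfd, Adipoq and Plin1 led the same way for fat, Col2a1, Comp, Col10a1 and Acan for cartilage, and Acp5 and Ibsp for bone.

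Some reads of these genes may belong to neighbours, because exons overlap and whether counting used strand is not stated in the sources used here. Mef2a shares exonic sequence with Lysmd4 on the other strand (820 and 688 counts), Hdac7 with Slc48a1 (2372 and 1916) and Mef2d with the antisense gene 1700113A16Rik (177 and 125). Hdac4 overlaps Gm26720 (36.4 and 15.1 counts), and Hdac5 the microRNA gene Mir8101 on its own strand (0.08 and 0). Slc48a1 had more counts than Hdac7 (1333 and 1034) in both pups, and Lysmd4 and 1700113A16Rik fewer than Mef2a and Mef2d.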

How the data were processed

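Total RNA libraries of 2 newborn muscle samples were used, each with a gene and a transcript table. The authors deposited expected counts, which split shared reads by a model, and posterior mean counts. TPM, the level per effective length scaled to a fixed sum, and each transcript's percent of its gene's TPM were deposited by the authors as well. Scores in the deposited tables (the bounds of an interval of TPM and the SD of a count) entered no result. Per the files that accompany the tables, the build was mm10 with GENCODE M4. The quantifier is not given in the sources used here. Names, exons and sequences came from GENCODE M21 (same build), which matched 42462 of 43346 gene IDs and 177 of 179 listed symbols (Mkl1 and Mkl2 are older names of Mrtfa and Mrtfb, which matched).

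For the ratio between pups, rounded expected counts received TMM factors (edgeR 4.0.16 under R 4.3.3), and log2 CPM values, with 2 as prior count, were subtracted. DESeq2 1.42.0 size factors were an alternative. Intervals are exact Clopper-Pearson at 95% and cover counting error of reads only, leaving out variation between animals and library preparations. Reads copied by PCR cannot be traced to single molecules, so the intervals can be too narrow for counts of molecules. The libraries differed beyond sampling (chi-square of 63 per degree of freedom over 17004 genes). Alternatives were scaling, filters, posterior means, shares of counts and leaving out each pup. Analysis used Python 3.11.15, pandas 2.3.3, scipy 1.17.1 and Biopython 1.88.

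The members and lists were chosen with earlier results of these data known. Named are all 8 genes, transcripts with at least 10% of a gene's TPM or counts on average, every alpha-exon model, up to 4 top genes of each list by mean TPM (for marker lists, sums), list genes under 0.1 TPM and list genes past 2-fold. Srf, Cabin1, Dach2, Gdf5, Hdac8, Mapk11, Myog, Runx1 and Hdac7-202 were named after their values were seen where the rule did not already include them. A marker gene and an exon sequence are not reported here.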

Additional observations from a re-analysis of the deposited data

How the results depend on the processing

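Counting expected counts in place of TPM lowered the alpha-2 share of Mef2a from 24.2% to 14.3% and that of Mef2d from 18.1% to 8.91%. Posterior mean TPM moved the class IIa sum to 78.5 TPM and the log2 ratio of Mef2 to class IIa RNA to 1.60. Full-length coding models, with Hdac9 kept at its gene level and added after the data were seen, gave 39.4 TPM and 2.57 for the same quantities and turned the difference of Hdac5 and Mef2a to -17.7 TPM, since short and retained-intron models are then left out. The number of genes at or above 1 TPM stayed 7 and the number past 2-fold stayed 0 under every alternative run for them. Leaving out either pup gave sums of 238 to 245 TPM (Mef2) and 77.1 to 77.7 TPM (class IIa), which with n = 2 lie within the SD by construction. None of the 32 ratio values under other scalings, posterior means or a smaller prior changed sign, but total scaling left 5 of 7 counting intervals clear of equality. Leading models common to both pups numbered 6 by counts and by posterior mean TPM, against 5, each including Hdac9 with its single listed model. No paired analysis was possible because the series holds 1 group. Depth limits Mef2b, at 10 and 14 counts, and the split of reads among overlapping models limits every share above.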
